A study of Mus musculus with 18 samples.

Results

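MHC class I antigen presentation was followed in cultured mouse mammary fibroblasts through 10 genes: the class I heavy chain genes H2-K1 and H2-D1, B2m, Tap1, Tap2, Tapbp, Psmb8, Psmb9, Psmb10 and Nlrc5. They were chosen by symbol, each matched 1 of the 55486 genes in the count table, and all 10 passed the filter on low counts, which left 14273 genes for testing. The 18 poly(A) RNA-seq libraries came from FVB/n normal fibroblasts (NFs) of the mammary gland, sorted by the surface peptidase CD26 and then given conditioned medium (CM) of tumor cells, or control CM, during 7 days of culture. CD26- NFs make up replicates 1 to 3 (control) and 4 to 9 (tumor CM), and CD26+ NFs make up replicates 10 to 12 (control) and 13 to 18 (tumor CM), so there are 4 groups. The tumor CM came from 6 cell lines, named 13-MCB-17, 10-SJK-221, 18-MCB-12, 13-MCB-44, 13-MCB-90 and 13-MCB-138, which were grown from invasive lobular carcinomas of 1 mouse model, which carries WapCre with floxed alleles, among them Cdh1 F/F, and in which the whey acidic protein promoter drives Cre in mammary epithelium. Each line conditioned the medium of 1 CD26- and 1 CD26+ culture, and values of tumor CM libraries are given below in that order of lines.

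According to the study's methods, the fibroblasts were sorted as EpCAM-/CD49f-/CD45-/CD31- cells from pooled glands of female mice that carried no WapCre (mice with floxed alleles or mTmG reporter mice, on FVB/n), and were used at low passage. The labels do not tie replicates to separate mice, so p-values measure only the spread between these libraries, which may be technical.

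Class I molecules display peptides from proteins made inside the cell to cytotoxic T cells. Peptides are cut by the proteasome, whose induced subunits Psmb8, Psmb9 and Psmb10 take the places of the constitutive subunits Psmb5, Psmb6 and Psmb7 in the immunoproteasome. The transporter formed by Tap1 and Tap2 moves the peptides into the endoplasmic reticulum, tapasin (Tapbp) bridges it to an empty class I molecule, and a heavy chain with beta-2 microglobulin (B2m) and a bound peptide then travels to the surface. Nlrc5 is a transactivator of class I genes, and interferon gamma is the best known inducer of the whole set.

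The libraries held 9725723 to 14585349 counts. The sorted marker did not separate the groups as RNA: Dpp4, which encodes CD26, stood at 0 to 0.171 CPM (counts relative to the scaled library size) in CD26- control libraries, 0 to 0.0809 CPM in CD26+ control libraries, 0.0776 to 0.881 CPM in CD26- NFs in tumor CM and 0.715 to 7.80 CPM in CD26+ NFs in tumor CM. By flow cytometry, the study found a fast loss of CD26 from sorted CD26+ NFs once they were in culture. Whether that loss accounts for the Dpp4 values here was not tested. Of 10 fibroblast markers, 9 were higher in CD26+ than in CD26- NFs in control medium, where 25% of all genes were higher and 25.4% lower. All 11 epithelial markers were detected, and their summed level was 4448 to 4916 CPM in CD26- control libraries, 2885 to 4660 CPM in CD26- tumor CM libraries, 732 to 1321 CPM in CD26+ control libraries and 682 to 1626 CPM in CD26+ tumor CM libraries. In control medium 10 of the 11 were lower in CD26+ NFs, 10 were lower in tumor CM (29.3% of all genes), and 0 passed the test for either effect of tumor CM (1 for each effect at an unadjusted p under 0.05, edgeR). Krt18 averaged 1534 CPM and Epcam 231 CPM in CD26- control libraries, against 279 and 58.4 CPM in CD26+ control libraries. The 12 immune markers summed to 14.9 to 29.9 CPM. Of these, 3 (Cd68, Lyz2 and Csf1r) passed the filter on low counts, and the others did not, among them Ptprc with 0 to 3 counts. In such bulk samples, fewer cells of a type and less RNA per cell cannot be told apart.

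Per kilobase of exon, B2m was the most abundant of the 10 transcripts in every library, with 264 to 382 CPM per kb. H2-D1 followed with 75.1 to 131 CPM per kb, H2-K1 with 28.7 to 60.8 and Tapbp with 14.9 to 32.3. Psmb10 lay between 4.61 and 7.61 CPM per kb and Tap2 between 3.85 and 6.33, ranges that overlap. The range of Psmb8 was 1.99 to 3.09 CPM per kb and that of Tap1 was 1.74 to 2.76, which overlap as well. At the low end, Psmb9 lay at 0.166 to 0.512 CPM per kb and Nlrc5 at 0.0467 to 0.256. Thus both heavy chains and B2m were transcribed in all 4 groups, and Psmb9 and Nlrc5 were the rarest of the 10 transcripts. Of the 10 genes, 7 lie within 1352 kb of chromosome 17 in the MHC, whereas B2m lies on chromosome 2 and Psmb10 and Nlrc5 on chromosome 8 (GRCm38).

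The class I heavy chains and B2m rose with tumor CM in CD26+ NFs and not in CD26- NFs, and the difference between both effects passed the test for all 3 genes. In control medium these 3 genes were lower in CD26+ than in CD26- NFs. In tumor CM, H2-K1 was higher in CD26+ NFs, while H2-D1 and B2m did not pass the test between the cell types.

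H2-K1 (ENSMUSG00000061232, chr17:33996017-34000347, minus strand) encodes a classical class I heavy chain. Its level was 140, 132 and 133 CPM in the CD26- control libraries and 110, 107, 121, 145, 122 and 132 CPM in CD26- NFs in tumor CM. In CD26+ NFs it was 93.6, 84.2 and 93.6 CPM in control medium and 165, 159, 167, 179, 167 and 134 CPM in tumor CM. Every CD26+ tumor CM library was above every CD26+ control library, whereas the CD26- groups overlapped. In CD26+ NFs the control mean was 90.5 ± 5.42 CPM (SD, n = 3) and the tumor CM mean 162 ± 15.2 CPM (SD, n = 6), a 1.79-fold rise (log2 fold change 0.84 ± 0.09 SE, adjusted p = 5.37e-06). In CD26- NFs the log2 fold change was -0.14 ± 0.09 (95% interval -0.32 to 0.05, adjusted p = 0.315), and the effects differed by 0.98 ± 0.13 on the log2 scale (adjusted p = 0.00108). CD26+ NFs had less H2-K1 than CD26- NFs in control medium (log2 fold change -0.58 ± 0.10, adjusted p = 0.000154) and more in tumor CM (0.40 ± 0.07, adjusted p = 0.000147), so the order of the cell types turned.

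H2-D1 (ENSMUSG00000073411, chr17:35262730-35267499), the other classical heavy chain gene, had 326, 301 and 295 CPM in CD26- control libraries and 300, 303, 309, 338, 321 and 303 CPM in CD26- NFs in tumor CM. CD26+ control libraries had 212, 194 and 204 CPM, and CD26+ NFs in tumor CM had 314, 300, 293, 312, 297 and 246 CPM. The CD26+ control libraries stood below all the others, and the other 3 groups overlapped, although CD26+ replicates 15 and 18 were below every CD26- library. Tumor CM raised H2-D1 1.45-fold in CD26+ NFs (log2 fold change 0.53 ± 0.07, adjusted p = 2.12e-05), and the value in CD26- NFs was 0.02 ± 0.07 (95% interval -0.11 to 0.16, adjusted p = 0.845). The difference between the effects was 0.51 ± 0.09 (adjusted p = 0.00542). Between cell types the log2 fold change was -0.60 ± 0.08 in control medium (adjusted p = 5.46e-06) and -0.09 ± 0.05 in tumor CM (95% interval -0.20 to 0.03, adjusted p = 0.17).

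B2m (ENSMUSG00000060802, chr2:122147686-122153083), the invariant light chain, was also lowest in CD26+ control libraries and changed less in size. It had 278, 276 and 286 CPM in CD26- control libraries, 286, 269, 283, 279, 266 and 290 CPM in CD26- NFs in tumor CM, and 230, 227 and 231 CPM in CD26+ control libraries. In CD26+ NFs in tumor CM it had 328, 309, 302, 311, 300 and 257 CPM. The CD26+ control libraries were again the lowest and no other library came within their range. B2m rose 1.31-fold in CD26+ NFs (log2 fold change 0.39 ± 0.06, adjusted p = 9.99e-05), with a value of -0.01 ± 0.06 in CD26- NFs (95% interval -0.13 to 0.11, adjusted p = 0.956) and a difference of 0.40 ± 0.08 between the effects (adjusted p = 0.00833). The gap between cell types was -0.29 ± 0.07 in control medium (adjusted p = 0.00148) and 0.11 ± 0.05 in tumor CM (adjusted p = 0.0503). That last value passed when replicate 18 was left out (0.15, adjusted p = 0.00153), without CD26- replicate 9 (0.12, adjusted p = 0.0421), with lines as a replicate block (0.11, adjusted p = 0.0427) and with DESeq2 (0.11, adjusted p = 0.0415).

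**Figure D1:**
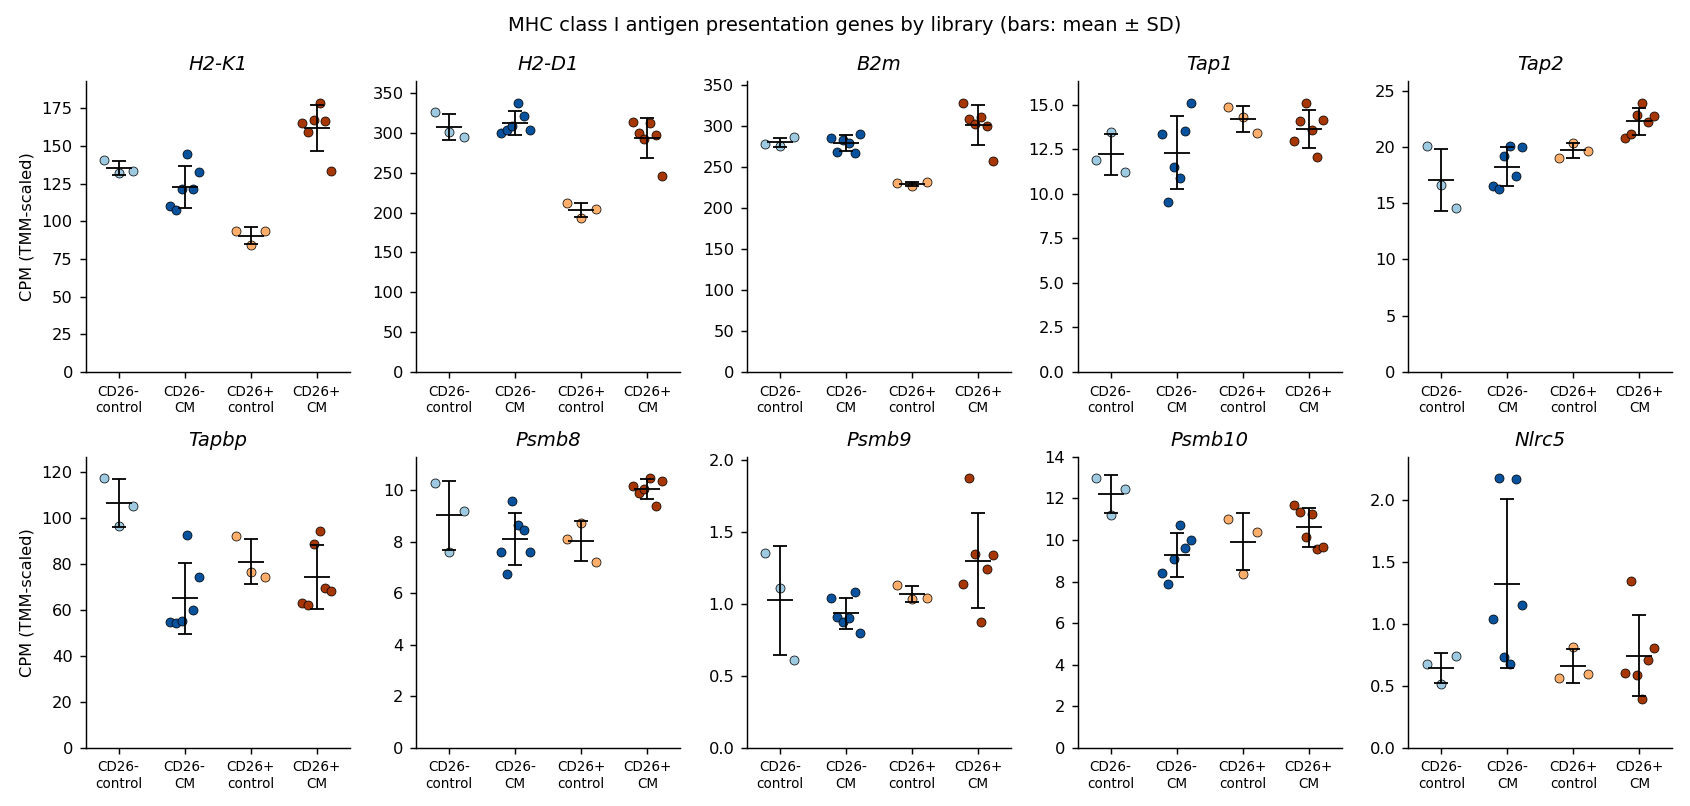
Level of each of the 10 genes (CPM, 1 panel per gene) in the 18 libraries by group, with points for libraries and lines for group means with their SD. H2-K1, H2-D1 and B2m show the CD26+ control libraries lowest, with H2-K1 at 84.2 to 93.6 CPM there and at 134 to 179 CPM in CD26+ NFs in tumor CM.

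For H2-K1, H2-D1 and B2m the calls for the CM effect in CD26+ NFs and for the control medium comparison held in 24 of 24 alternative settings, and those for the difference in 23 of 23. The log2 fold changes in CD26+ NFs ranged from 0.78 to 0.88 for H2-K1, from 0.48 to 0.57 for H2-D1 and from 0.36 to 0.43 for B2m over these settings. The FVB/n strain carries another MHC haplotype than the C57BL/6J reference. Of the 65-base stretches of their transcripts, the reference shares 4.70% of those of H2-K1 and 6.95% of those of H2-D1 with other genes, and none of B2m. How reads of FVB/n class I alleles were assigned was not tested. The epithelial markers that stood higher in CD26- NFs moved with the comparison of cell types, and their part in it was not tested.

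The promoters of these 3 genes are shown because the 3 rose together in CD26+ NFs, beside those of the other class I genes H2-Q4, H2-T22 and H2-T23, which also rose there. The 250 bases before each RefSeq start site are given 5' to 3' on the gene's strand, from the C57BL/6J reference (GRCm38.p6). They span chr17:34000348-34000597 (minus strand, the upper of 2 windows) for H2-K1, chr17:35262844-35263093 for H2-D1, chr2:122147437-122147686 for B2m, chr17:35379367-35379616 for H2-Q4 and, on the minus strand, chr17:36042743-36042992 for H2-T22 and chr17:36032702-36032951 for H2-T23. Capitals mark an interferon response element core (GAAA, any 2 bases, GAAA), an NF-kB-like site (GGGNNTTCC, or the same with 1 further T) and an X2 box-like site (TGACGC), each searched on both strands.
H2-K1: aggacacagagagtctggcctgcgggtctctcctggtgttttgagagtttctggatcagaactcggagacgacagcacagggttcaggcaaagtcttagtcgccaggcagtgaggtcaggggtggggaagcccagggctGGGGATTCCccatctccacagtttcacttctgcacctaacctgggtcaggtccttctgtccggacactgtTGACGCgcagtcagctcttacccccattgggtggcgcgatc
H2-D1: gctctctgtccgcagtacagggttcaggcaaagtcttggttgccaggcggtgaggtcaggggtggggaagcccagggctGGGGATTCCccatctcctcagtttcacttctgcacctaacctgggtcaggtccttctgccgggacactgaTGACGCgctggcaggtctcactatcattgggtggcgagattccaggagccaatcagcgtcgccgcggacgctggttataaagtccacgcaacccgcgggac
B2m: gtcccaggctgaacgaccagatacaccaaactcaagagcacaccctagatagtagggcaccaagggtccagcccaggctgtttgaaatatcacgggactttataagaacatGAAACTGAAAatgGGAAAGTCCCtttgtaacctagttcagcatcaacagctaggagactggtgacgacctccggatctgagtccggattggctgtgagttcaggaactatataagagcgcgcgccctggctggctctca
H2-Q4: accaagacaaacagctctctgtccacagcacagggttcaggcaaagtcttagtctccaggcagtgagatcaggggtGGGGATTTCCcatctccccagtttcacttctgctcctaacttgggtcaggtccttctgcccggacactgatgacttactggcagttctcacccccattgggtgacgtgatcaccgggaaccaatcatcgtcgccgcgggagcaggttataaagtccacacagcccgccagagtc
H2-T22: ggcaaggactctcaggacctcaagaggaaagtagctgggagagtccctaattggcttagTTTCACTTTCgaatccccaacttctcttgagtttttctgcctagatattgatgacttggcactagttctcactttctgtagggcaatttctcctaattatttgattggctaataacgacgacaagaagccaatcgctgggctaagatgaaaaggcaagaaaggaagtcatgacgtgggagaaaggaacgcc
H2-T23: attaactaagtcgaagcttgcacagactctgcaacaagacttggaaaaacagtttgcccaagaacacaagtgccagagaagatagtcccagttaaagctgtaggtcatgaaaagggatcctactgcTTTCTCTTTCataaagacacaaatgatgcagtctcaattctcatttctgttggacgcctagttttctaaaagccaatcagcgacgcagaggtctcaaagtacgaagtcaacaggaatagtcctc

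H2-K1 and H2-D1 hold the same NF-kB-like word, which begins 111 bases before the start site in H2-K1 and 171 bases before it in H2-D1, and each holds an X2 box-like site, at 41 and 101 bases before the start. B2m holds the interferon core at 139 and an NF-kB-like site at 126 bases before the start, read on the opposite strand, and the NF-kB-like site of H2-Q4 begins at 174 bases. H2-T22 and H2-T23 hold the interferon core at 191 and 124 bases before the start and no NF-kB-like site in the window. RefSeq windows of 300 bases, to 50 bases past the start site, were at hand for 8 of the 10 genes. The NF-kB-like site was in 3 of these 8 (H2-K1, H2-D1 and B2m) and in 7% of all 32851 windows, and the interferon core was in 1 of 8 (B2m) and in 3.44% of all windows. The X2 box-like site was in 2 of 8 (7.4% of all windows), a STAT-like site (TTCNNNGAA) in 1 of 8, Psmb8 (8.3% of all), and the Y box (CCAAT) in 6 of 8 (37.4% of all). Among the other class I genes tested, 15 had a window, of which 4 held the NF-kB-like site (H2-Q4, H2-Q6, H2-Q7 and Mill2) and 2 the interferon core (H2-T22 and H2-T23). The search took exact words only, so a window without a match may still hold a variant of a site. For example, H2-K1, H2-D1 and H2-Q4 each hold the run tttcacttct, which is close to the interferon core and was not marked. A match is only a run of letters in the window and was not tied to a factor here.

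Of the genes of peptide transport and loading, Tap1 passed none of the 5 comparisons with all libraries, Tap2 passed between the cell types in tumor CM alone, and tapasin fell with tumor CM in CD26- NFs. Tap1 (chr17:34187553-34197225) had 11.9, 13.5 and 11.2 CPM in CD26- control libraries and 13.4, 9.55, 11.5, 10.9, 13.5 and 15.1 CPM in CD26- NFs in tumor CM. CD26+ NFs had 14.9, 14.3 and 13.4 CPM of Tap1 in control medium and 13.0, 14.1, 15.1, 13.6, 12.1 and 14.1 CPM in tumor CM. The groups overlapped, and the log2 fold change with tumor CM was 0.01 ± 0.12 in CD26- NFs (95% interval -0.24 to 0.26, adjusted p = 0.966) and -0.06 ± 0.12 in CD26+ NFs (95% interval -0.30 to 0.19, adjusted p = 0.758). Between cell types in tumor CM, Tap1 had 0.15 ± 0.10 (adjusted p = 0.183), which passed without CD26- replicate 9 (0.22, adjusted p = 0.0498).

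Tap2 (chr17:34203527-34216321) had 20.04, 16.7 and 14.6 CPM in CD26- control libraries, 16.5, 16.3, 19.2, 20.1, 17.5 and 19.98 CPM in CD26- NFs in tumor CM and 19.0, 20.4 and 19.7 CPM in CD26+ control libraries. In CD26+ NFs in tumor CM it had 20.8, 21.2, 22.8, 23.9, 22.2 and 22.8 CPM, above every library of the other 3 groups. Tap2 was higher in CD26+ than in CD26- NFs in tumor CM (log2 fold change 0.29 ± 0.07, adjusted p = 0.00302), a call kept in 24 of 24 alternative settings. Its change with tumor CM in CD26+ NFs was 0.18 ± 0.09 (adjusted p = 0.158), although those groups did not overlap. In control medium its log2 fold change between the cell types was 0.21 ± 0.11 (adjusted p = 0.109), which passed without CD26- control replicate 1 (0.34, adjusted p = 0.0141).

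Tapbp (chr17:33915899-33929292) encodes tapasin. It had 117, 96.5 and 105 CPM in CD26- control libraries and 54.4, 54.0, 55.0, 92.6, 59.9 and 74.0 CPM in CD26- NFs in tumor CM, so that no tumor CM library reached the control range and that of line 13-MCB-44 came closest. CD26+ NFs had 92.2, 76.4 and 74.3 CPM in control medium and 63.0, 62.0, 88.7, 94.4, 69.6 and 68.1 CPM in tumor CM, and these overlapped. Tapbp fell to 0.61-fold in CD26- NFs (log2 fold change -0.71 ± 0.16, adjusted p = 0.0081), and its value in CD26+ NFs was -0.12 ± 0.17 (95% interval -0.47 to 0.23, adjusted p = 0.624). The difference between the effects did not pass the test (0.59 ± 0.24, adjusted p = 0.129), but did with lines as a replicate block (0.59, adjusted p = 0.0149) and without CD26- replicate 7, the 13-MCB-44 library (0.71, adjusted p = 0.0325). The fall in CD26- NFs lost its call without CD26- control replicate 1 (-0.63, adjusted p = 0.0509). In the control medium comparison the groups did not overlap, and the log2 fold change of -0.39 ± 0.19 did not pass (adjusted p = 0.0995), yet passed with the block (adjusted p = 0.0118), with only the control groups in the fit (adjusted p = 0.00288) and without replicate 7 (adjusted p = 0.0454). Of the 65-base stretches of Tapbp, 20.35% are shared with another gene, mostly the antisense Gm19412, which had 0 to 1 counts, and 1.685% on the same strand. The study does not state whether counting used strand.

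The induced proteasome subunits changed little. In CD26+ NFs in tumor CM, Psmb8 rose 1.26-fold, Psmb10 fell to 0.76-fold with tumor CM in CD26- NFs, and Psmb9 passed none of the 5 comparisons. Psmb8 (chr17:34197721-34201454), the induced chymotrypsin-like subunit, had 10.26, 7.60 and 9.20 CPM in CD26- control libraries and 7.61, 6.74, 9.58, 8.63, 8.46 and 7.60 CPM in CD26- NFs in tumor CM. CD26+ control libraries had 8.09, 8.74 and 7.20 CPM of Psmb8, below the 10.16, 9.90, 10.05, 10.46, 9.40 and 10.37 CPM of CD26+ NFs in tumor CM. The rise in CD26+ NFs (log2 fold change 0.33 ± 0.11, adjusted p = 0.0333) was past the threshold in 16 of 24 alternative settings. The call was lost without CD26+ control replicate 10 or 12 (adjusted p = 0.0831 and 0.177), without CD26+ tumor CM replicate 13, 14, 15 or 16 (adjusted p = 0.0511 to 0.0577), with upper-quartile scaling (adjusted p = 0.0529) and with no filter on low counts (adjusted p = 0.0816). The difference between the effects on Psmb8 was 0.48 ± 0.16 (adjusted p = 0.0651), which passed without CD26- replicate 2 or 6 (adjusted p = 0.0405 and 0.0413). Between cell types in tumor CM, Psmb8 was higher in CD26+ NFs (0.31 ± 0.09, adjusted p = 0.00625), in 24 of 24 alternative settings.

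Psmb10 (chr8:105935735-105938444), the induced trypsin-like subunit, had 13.0, 11.2 and 12.5 CPM in CD26- control libraries and 8.41, 7.86, 9.07, 10.7, 9.62 and 9.99 CPM in CD26- NFs in tumor CM, with no overlap. In CD26+ NFs Psmb10 had 11.0, 8.37 and 10.39 CPM in control medium and 11.7, 11.3, 10.13, 11.3, 9.58 and 9.65 CPM in tumor CM, with overlap. The fall in CD26- NFs (log2 fold change -0.40 ± 0.11, adjusted p = 0.0213) was lost without CD26- control replicate 1 (-0.35, adjusted p = 0.0956) or replicate 3 (-0.38, adjusted p = 0.0935). The value in CD26+ NFs was 0.10 ± 0.11 (adjusted p = 0.543), and the difference of 0.50 ± 0.16 did not pass (adjusted p = 0.0589), while with the replicate block it did (0.50, adjusted p = 0.0496), as with DESeq2 (0.51, adjusted p = 0.0375), without CD26- tumor CM replicate 7 (0.54, adjusted p = 0.035) and without CD26+ tumor CM replicate 18 (0.51, adjusted p = 0.0356). Psmb9 (chr17:34181987-34187764) shares 212 bases of its span with Tap1. It had 9 to 25 counts per library, and its log2 fold change was -0.09 ± 0.40 in CD26- NFs and 0.29 ± 0.25 in CD26+ NFs with tumor CM (adjusted p = 0.916 and 0.427). Without CD26- control replicate 1 the value in CD26- NFs was 0.15. Between cell types in tumor CM, Psmb9 had 0.47 ± 0.20 (adjusted p = 0.0526), which passed without CD26- replicate 8 (adjusted p = 0.0489) or CD26+ replicate 13 or 16 (adjusted p = 0.0498 and 0.0251).

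Since each induced subunit takes the place of a constitutive one, the log2 ratio of the pair was computed within each library, which does not depend on library scaling. In tumor CM all 3 ratios were higher in CD26+ than in CD26- NFs, with no overlap between the 6 and 6 libraries. Psmb8 to Psmb5 was -2.43 ± 0.23 in CD26- control, -2.53 ± 0.19 in CD26- tumor CM, -2.29 ± 0.06 in CD26+ control and -1.85 ± 0.09 in CD26+ tumor CM libraries (mean log2 ratio ± SD, n = 3 or 6). Psmb10 to Psmb7 took the values -2.56 ± 0.19, -2.89 ± 0.21, -2.39 ± 0.15 and -2.14 ± 0.10 in the same order of groups. Psmb9 to Psmb6 took the values -6.86 ± 0.58, -6.87 ± 0.14, -6.44 ± 0.09 and -6.05 ± 0.39. The gaps in tumor CM were 0.68, 0.75 and 0.82, each with p = 0.00216 in the exact two-sided permutation test, the smallest that 6 against 6 libraries can give, and adjusted p = 0.00866 over 12 comparisons. The libraries were permuted freely in that test, although both cell types share each line's CM. With the line as a replicate block (signs flipped within the 6 lines), all 6 lines had the higher ratio in CD26+ NFs for each pair, and the exact two-sided p was 0.0312 for each, the smallest that 6 lines can give, so that no ratio passed over 12 comparisons (adjusted p = 0.0938).

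On the induced side of the ratios in tumor CM, Psmb8 passed (0.31), while Psmb9 (0.47 ± 0.20, adjusted p = 0.0526) and Psmb10 (0.20 ± 0.09, adjusted p = 0.0724) did not. The constitutive subunits were lower in CD26+ than in CD26- NFs in tumor CM, with log2 fold changes of -0.36 for Psmb5, -0.39 for Psmb6 and -0.56 for Psmb7, all past the test, and likewise in control medium (-0.30, -0.29 and -0.47). The same was seen beyond the exchanged subunits: of 16 other 20S proteasome subunits and assembly factors 12 were lower in CD26+ NFs in tumor CM and 11 in control medium, where 29.3% and 25.4% of all genes were lower. With tumor CM in CD26+ NFs, the Psmb8 to Psmb5 ratio rose by 0.44 with no overlap (exact permutation p = 0.0238, the smallest for 6 against 3 libraries; adjusted p = 0.0714). The Psmb10 to Psmb7 ratio moved by 0.25 there (exact permutation p = 0.0476, adjusted p = 0.114) and by -0.33 in CD26- NFs (exact permutation p = 0.0714, adjusted p = 0.143). None of these within-cell-type values passed after adjustment, and 3 against 3 libraries, as in control medium, cannot go below an exact p of 0.1. Psmb5 shares 43.48% of its 65-base stretches with other genes, so how its reads were assigned is uncertain, and the Psmb9 ratio rests on 9 to 25 counts.

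**Figure D2:**
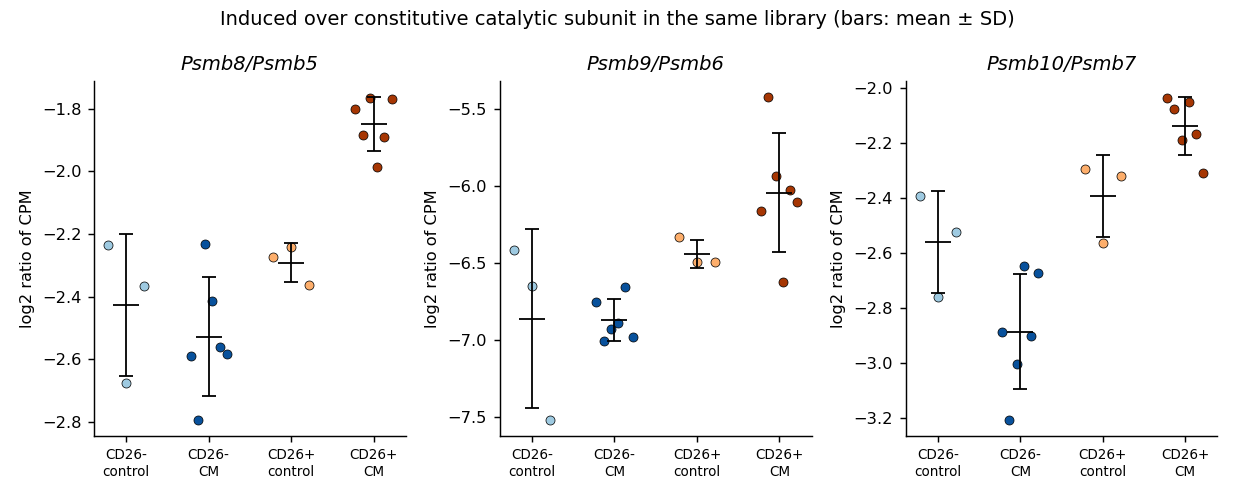
Log2 ratio of each induced to its constitutive proteasome subunit by group, with points for libraries and lines for means with their SD. In all 3 panels the CD26+ tumor CM libraries lie above the CD26- tumor CM libraries, with means of -1.85 against -2.53 for Psmb8 to Psmb5.

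Nlrc5 (ENSMUSG00000074151, chr8:94434356-94527272) had only 5 to 31 counts in a library, which limits what can be said of it. It stood at 0.678, 0.512 and 0.744 CPM in CD26- control libraries and at 1.04, 2.18, 0.732, 0.676, 2.17 and 1.15 CPM in CD26- NFs in tumor CM, where the lines 10-SJK-221 and 13-MCB-90 gave the highest values. CD26+ NFs had 0.567, 0.815 and 0.594 CPM in control medium and 0.606, 1.35, 0.591, 0.396, 0.7097 and 0.804 CPM in tumor CM. The log2 fold change with tumor CM was 1.02 ± 0.42 in CD26- NFs (adjusted p = 0.112) and 0.18 ± 0.45 in CD26+ NFs (adjusted p = 0.811). With lines as a replicate block, the first became 0.89 and passed (adjusted p = 0.0214). In tumor CM, Nlrc5 was lower in CD26+ than in CD26- NFs (-0.82 ± 0.33, adjusted p = 0.0393), opposite in sign to H2-K1 and Tap2 in the same comparison. That call was past the threshold in 16 of 24 alternative settings, and without CD26- replicate 5 or 8 the value was -0.62 or -0.63 (adjusted p = 0.12 and 0.113). It was also lost without CD26+ replicate 13, 15, 16 or 17 (adjusted p = 0.0595 to 0.0821), with only the compared groups in the fit (adjusted p = 0.0702) and with no filter (adjusted p = 0.0687).

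Counted over the 10 genes, no gene that passed the test for tumor CM had a log2 fold change past 2, the limit used in the study, or past 1. In CD26+ NFs, 4 genes rose (H2-K1, H2-D1, B2m and Psmb8) and 0 fell with edgeR or DESeq2, also at an unadjusted p under 0.05. Of all tested genes 28.6% passed in this comparison, 15.2% as higher and 13.4% as lower, and 2.01% also passed the log2 limit of 2. The median log2 fold change was 0.23 for the 10 genes and -0.0040 for all genes. No overlap between the groups was seen for 5 of the 10 genes (the same 4 and Tap2), against 25.3% of all genes.

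In CD26- NFs 2 of the 10 fell, Tapbp and Psmb10, and 0 rose with edgeR or DESeq2 (1, Nlrc5, at an unadjusted p under 0.05 in edgeR). Here 15.2% of all genes passed, 7.88% as higher and 7.28% as lower, with 0.904% past the log2 limit of 2, so that 2 of 10 is close to the share of all genes. The median was -0.05, against 0.01 for all genes. The groups did not overlap for the same 2 genes, against 20.3% of all genes. Without CD26- control replicate 1 neither call was kept, and without replicate 3 only 1.

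Between the cell types in control medium 3 genes were lower in CD26+ NFs (H2-K1, H2-D1 and B2m) and 0 higher with edgeR or DESeq2, where 50.3% of all genes passed, 25% as higher and 25.4% as lower. At an unadjusted p under 0.05 in edgeR, 4 were lower, with Psmb10 added, and 0 higher. The 10 genes were thus not called more often than genes at large, and their median was -0.23 against 0.01. No overlap was found for 5 of them (with Tapbp and Psmb10) and for 64.7% of all genes. Without CD26- tumor CM replicate 7, 5 genes passed. In tumor CM 3 genes were higher (H2-K1, Tap2 and Psmb8) and 1 lower (Nlrc5), where 58.6% of all genes passed, 29.3% as higher and 29.3% as lower, and only Tap2 showed no overlap, against 31.7% of all genes. The median there was 0.19 against -0.00011. Without CD26- tumor CM replicate 7 or 9, 6 genes passed.

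The difference in effect between CD26+ and CD26- NFs passed for 3 of the 10 genes, all higher in CD26+ NFs, while 7.53% of all genes passed, 4.53% as higher and 3.01% as lower. The median difference was 0.44 for the 10 genes and 0.01 for all genes, and 8 of the 10 were positive. Without CD26- replicate 7 the count was 5, with Tapbp and Psmb10 added. Since both cell type comparisons and both CM effects share libraries, these counts are not independent of each other.

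**Figure D3:**
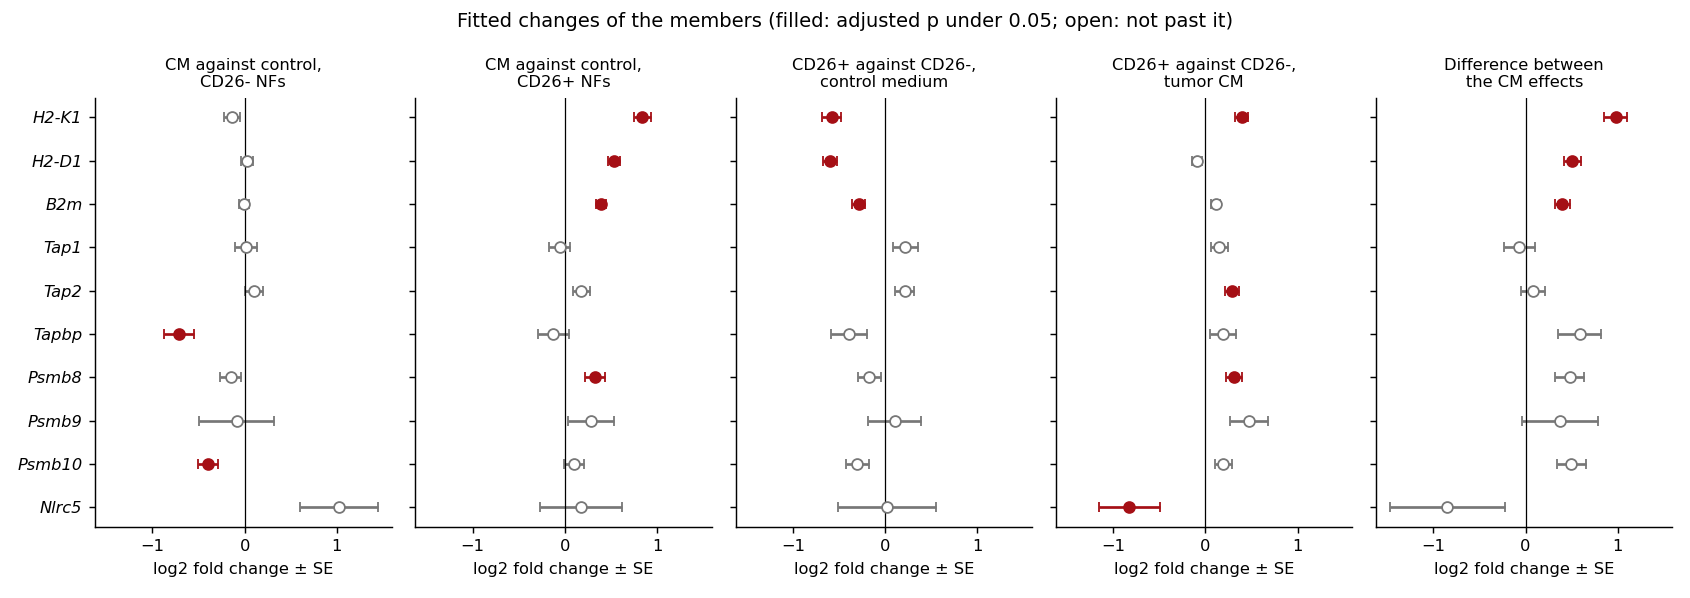
Log2 fold change (horizontal axis, bars of 1 SE) of the 10 genes in the 5 comparisons, 1 panel each, with filled points for genes past an adjusted p of 0.05. H2-K1, H2-D1 and B2m lie right of 0 for tumor CM in CD26+ NFs (0.84, 0.53 and 0.39) and left of 0 for the cell types in control medium (-0.58, -0.60 and -0.29).

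By CM line, the rise of H2-K1 in CD26+ NFs was seen with all 6 lines, from 0.56 above the control mean with 13-MCB-138 to 0.98 with 13-MCB-44 on the log2 scale. In CD26- NFs the same measure ran from -0.33 with 10-SJK-221 to 0.10 with 13-MCB-44. H2-K1 was thus highest with 13-MCB-44 in both cell types. For H2-K1, H2-D1 and B2m the lowest CD26+ library in tumor CM was that of 13-MCB-138, replicate 18, whereas this line gave none of the lowest CD26- values of the 3 genes. Tapbp was also highest with 13-MCB-44 in both cell types (92.6 and 94.4 CPM) and lowest with 10-SJK-221 in both (54.0 and 62.0 CPM). Nlrc5 was highest with 10-SJK-221 in both (2.18 and 1.35 CPM) and lowest with 13-MCB-44 (0.676 and 0.396 CPM).

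The test over lines, with cell type as a covariate and 1 library per line and cell type, found none of the 10 genes past an adjusted p of 0.05, against 6.28% of all genes. At an unadjusted p under 0.05 there were 2, Nlrc5 (adjusted p = 0.0768) and Tapbp (adjusted p = 0.0895), both from edgeR. The likelihood ratio test of DESeq2 called 1, Tapbp (adjusted p = 0.0083). Without CD26- replicate 9 edgeR called 2, Tapbp (adjusted p = 0.023) and H2-K1 (adjusted p = 0.036), and without replicate 6, 15 or 18 it called Tapbp alone.

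**Figure D4:**
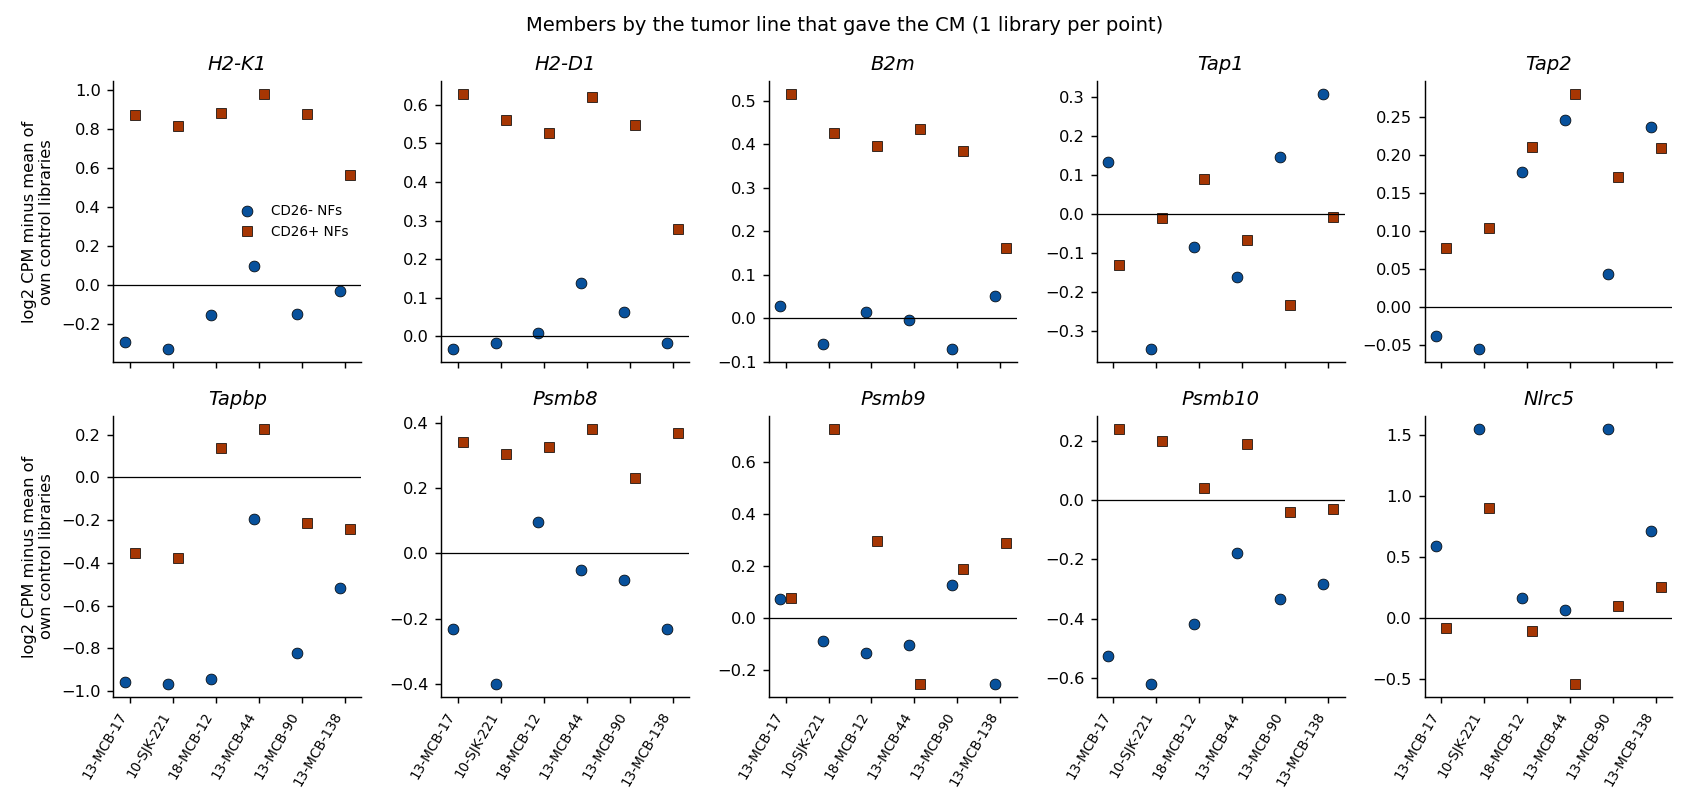
Level of the 10 genes with each of the 6 lines as the difference in log2 CPM from the control mean of the same cell type, with CD26- and CD26+ libraries as separate points. For H2-K1 the CD26+ points lie between 0.56 and 0.98 and the CD26- points between -0.33 and 0.10.

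Among other class I genes, some changed more with tumor CM than any of the 10. The list of other class I heavy chains and class I-like genes had 36 names, of which 32 were in the table and 20 were tested, with 5 at 0 counts in every library. In CD26+ NFs 14 of the 20 rose with tumor CM and 0 fell with edgeR or DESeq2, where 15.2% of all genes rose and 13.4% fell. Of the 14, 9 had at most 20 counts in every CD26+ control library, a limit set after the values were seen. A gene that low in the controls can pass the filter through its tumor CM libraries alone, and its fold change is not comparable with those of the 10. The other 5 were H2-T10, H2-T22, H2-T23, H2-Q4 and Mr1, which presents vitamin B metabolites (0.46, adjusted p = 0.000786). In CD26- NFs 4 were higher and 3 lower, where 7.88% of all genes were higher and 7.28% lower. There 2 were higher without control replicate 3, and 1 was lower without control replicate 1.

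H2-T10 and H2-T22 encode class I-like molecules that gamma delta T cells can recognize and that hold no peptide. H2-T10 went from 12.0, 9.56 and 9.42 CPM in CD26+ control libraries to 90.7, 131, 115, 85.0, 101 and 56.9 CPM in tumor CM, and from 24.6, 23.8 and 23.1 CPM to 81.9, 82.9, 111, 64.5, 76.1 and 76.8 CPM in CD26- NFs. Each tumor CM library was above each control library in both cell types. The log2 fold change was 3.23 ± 0.24 in CD26+ NFs (adjusted p = 1.17e-07) and 1.79 ± 0.21 in CD26- NFs (adjusted p = 0.000119), with a difference of 1.44 ± 0.30 (adjusted p = 0.00897).

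H2-T22 went from 8.01, 7.78 and 7.79 CPM to 39.9, 62.3, 52.5, 36.4, 48.9 and 35.4 CPM in CD26+ NFs and from 13.2, 13.0 and 12.0 CPM to 36.8, 40.7, 48.1, 28.1, 36.3 and 33.9 CPM in CD26- NFs. Its log2 fold changes were 2.54 ± 0.20 (adjusted p = 2e-07) and 1.56 ± 0.18 (adjusted p = 0.000119), with a difference of 0.99 ± 0.26 (adjusted p = 0.0295). The difference lost its call without any 1 of the control replicates 1, 2, 3, 10, 11 and 12 (0.96 to 1.03, adjusted p = 0.06 to 0.0838). H2-T10 and H2-T22 share 21.6% and 24.1% of their 65-base stretches with other genes on the same strand, mostly with each other, so how reads were split between them is uncertain. With antisense genes counted too, the shares were 40.7% and 44.7%. H2-T22 also differed among lines (adjusted p = 0.0444), a call that was kept without replicate 5, 9 or 18 and lost without any other tumor CM library (adjusted p = 0.0598 to 0.136).

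H2-Q4, a nonclassical class I gene, had 11.6, 10.0 and 8.61 CPM in CD26+ control libraries and 23.3, 19.4, 21.8, 19.6, 21.9 and 12.9 CPM in CD26+ NFs in tumor CM. In CD26- NFs it had 16.5, 15.9 and 13.4 CPM and then 13.5, 12.2, 16.4, 22.1, 17.8 and 15.6 CPM, which overlap. Like H2-K1, it rose in CD26+ NFs (log2 fold change 0.98 ± 0.19, adjusted p = 0.000924), with a value of 0.10 ± 0.18 in CD26- NFs (adjusted p = 0.756) and a difference of 0.88 ± 0.26 (adjusted p = 0.0449). This difference was near the threshold: it was kept without replicate 7 or 18 and lost without any other library (0.77 to 0.99, adjusted p = 0.0539 to 0.124) and with upper-quartile scaling (0.85, adjusted p = 0.0505). H2-Q4 shares 25.6% of its 65-base stretches with other genes, and 11.4% on the same strand. H2-T23, whose product Qa-1 shows leader peptides of class I chains to natural killer cells, rose in CD26+ NFs (4.58 ± 0.382 CPM in control medium and 9.36 ± 1.89 CPM in tumor CM, SD, n = 3 and 6, log2 fold change 1.03 ± 0.21, adjusted p = 0.00135). Its value in CD26- NFs was 0.21 ± 0.21 (adjusted p = 0.553), and the difference of 0.82 ± 0.30 did not pass (adjusted p = 0.0911). H2-M3, which presents formylated peptides, did not pass for tumor CM in either cell type (0.14 ± 0.16 and 0.08 ± 0.17, adjusted p = 0.565 and 0.812).

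**Figure D5:**
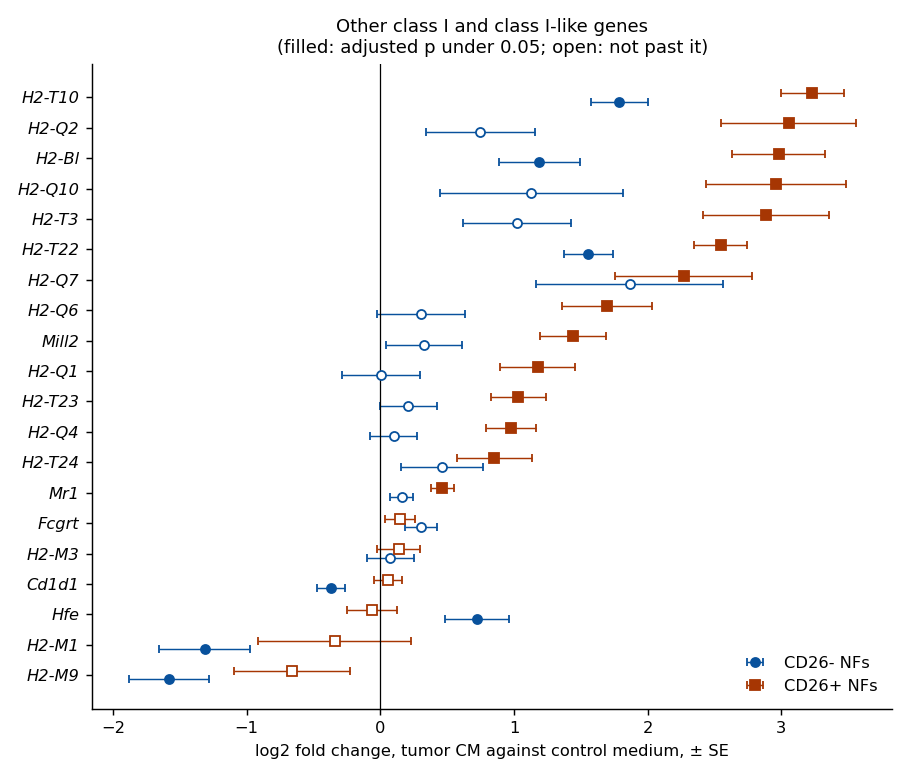
Log2 fold change with tumor CM (horizontal axis, bars of 1 SE) of the 20 tested genes of this list in CD26- NFs (circles) and CD26+ NFs (squares), with filled symbols for genes past an adjusted p of 0.05. H2-T10 lies at 3.23 in CD26+ and 1.79 in CD26- NFs, and 14 squares but 7 circles are filled.

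Of 8 genes of peptide loading and trimming, 0 rose with tumor CM in either cell type in edgeR, also at an unadjusted p under 0.05, where 7.88% of all genes rose in CD26- and 15.2% in CD26+ NFs, so 0 of 8 is near the share of all genes. In CD26- NFs 1 fell and in CD26+ NFs 2 fell, where 7.28% and 13.4% of all genes fell. Erap1, the endoplasmic reticulum peptidase that trims class I peptides, fell in CD26- NFs (49.1 ± 2.37 CPM in control medium and 31.3 ± 5.33 CPM in tumor CM, SD, n = 3 and 6, log2 fold change -0.65 ± 0.12, adjusted p = 0.00223). Canx, the chaperone calnexin, fell in CD26+ NFs (-0.27 ± 0.07, adjusted p = 0.00822), as did Ganab (-0.19 ± 0.05, adjusted p = 0.00502), a glucosidase of the same folding cycle. Tapbpl, a tapasin-related peptide editor, was lower in CD26+ than in CD26- NFs in control medium (-1.09 ± 0.17, adjusted p = 3.54e-05) and in tumor CM (-0.50 ± 0.12, adjusted p = 0.00137). Of 4 proteasome activators, 2 fell with tumor CM in CD26- NFs (7.28% of all genes), Psme2 (-0.33 ± 0.07, adjusted p = 0.00477) and Psme4 (-0.22 ± 0.05, adjusted p = 0.00411). In CD26+ NFs 0 of the 4 passed in edgeR (28.6% of all genes), with 1 lower at an unadjusted p under 0.05. The effects on Psme2, a subunit of the interferon-inducible activator PA28, differed by 0.46 ± 0.10 (adjusted p = 0.0119), but not past the threshold without CD26+ control replicate 11 (0.43, adjusted p = 0.0576).

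Among 9 factors of class I promoters, 0 passed with tumor CM in CD26- NFs in edgeR, also at an unadjusted p under 0.05 (15.2% of all genes passed), and 2 fell in CD26+ NFs (13.4% of all genes, a share near 2 of 9), among them the repressive methyltransferase gene Ezh2 (-0.44 ± 0.15, adjusted p = 0.0335). The call of Ezh2 was lost without replicate 10, 11, 12 or 14 (-0.48 to -0.40, adjusted p = 0.0596 to 0.0912) and with only the compared groups in the fit (-0.45, adjusted p = 0.115). Rfx5, which binds the X box of class I promoters, had -0.13 ± 0.10 and -0.09 ± 0.10 (adjusted p = 0.434 and 0.552 in CD26- and CD26+ NFs). Of 15 genes of interferon signaling 13 were tested, and Ifng had 0 counts in every library. With tumor CM, CD26+ NFs had 5 of them higher and 1 lower, and CD26- NFs had 3 higher and 1 lower, against 15.2% and 13.4% of all genes in CD26+ and 7.88% and 7.28% in CD26- NFs. The count of higher genes became 3 in CD26+ NFs without replicate 10 and 1 in CD26- NFs without replicate 3, and was 5 in CD26- NFs with only the compared groups in the fit. Ifngr2, a chain of the interferon gamma receptor, rose in CD26+ NFs (55.7 ± 2.17 CPM in control medium and 107 ± 13.6 CPM in tumor CM, SD, n = 3 and 6, log2 fold change 0.95 ± 0.09, adjusted p = 1.19e-06) and less in CD26- NFs (0.27 ± 0.09, adjusted p = 0.0434), a difference of 0.68 ± 0.12 (adjusted p = 0.00464). The call in CD26- NFs was lost without any 1 of the replicates 1 to 6, 8, 10 to 12 and 14 to 16 (0.25 to 0.28, adjusted p = 0.0502 to 0.143), with RLE scaling (0.26, adjusted p = 0.0546) and with no filter (0.26, adjusted p = 0.086), whereas the call of the difference was kept. Irf1, a transcription factor of the pathway, fell in CD26- NFs (-0.54 ± 0.14, adjusted p = 0.0133), a call lost without replicate 1 or 3 (-0.45 and -0.51, adjusted p = 0.0814 and 0.069).

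The genes whose pattern over the 18 libraries was most like the mean of the 10 were Lpin3, Irf2bp2, Enc1, Kazn and Aox1, with Pearson r of 0.83 each when rounded. Over the 12 tumor CM libraries after subtracting group means they were Tcp11l2 (r = 0.952), Psd (0.896), Supt4a (0.890), Lzts2 (0.889) and Gna12 (0.887). These are descriptions over libraries that share groups and lines.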

How the data were processed

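Poly(A) RNA of 18 cultures was made into stranded libraries and read from a single end, per the labels. The authors deposited 1 table of counts per gene with no normalization, and the submitters' processing notes name HISAT2 2.1.0, HTSeq with no version and GRCm38. The strand setting and annotation release are not given in the sources used here. The labels name no batch, and none was tested. Some alleles and genes are not reported here. A row without a gene held 0 counts and was left out.

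Counts were filtered by group (14273 genes, at least 99.9% of each library's counts), scaled with TMM and tested in edgeR 4.0.16 (quasi-likelihood F test, R 4.3.3), in 1 model of the 4 groups, with 5 contrasts. Adjusted p is the Benjamini-Hochberg value over all tested genes, called under 0.05, and ± after a log2 fold change is its standard error. CPM were computed from TMM-scaled library sizes. Line differences were tested in the 12 tumor CM libraries with cell type as covariate, and subunit ratios with an exact permutation test over libraries. Replicates differed by more than counting error (chi-square per degree of freedom of at least 3.22), so no library was a copy. Scripts were tested on simulated data.

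The genes and lists were chosen with earlier results of these data known. Beside the 10 genes, the text names a fixed list of 20 genes, from each other list at most the gene with the smallest p per direction and comparison, and the 5 genes most like the mean of the 10 (at least 5 CPM).

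The CD26- and CD26+ libraries of a line share its CM, and their deviations from the group means correlated with r of 0.247 to 0.406, against -0.315 to 0.242 between different lines, so that lines pair the samples. The fits were repeated with DESeq2 1.42.0, with RLE or upper-quartile scaling, without the filter, without each library in turn, on the compared groups alone, with the line as a replicate block and at other thresholds, and the ratio test with signs flipped within lines (added after the data were seen). Gene positions and shared stretches (65 bases, the read length) came from GENCODE release vM21, which has the build of the table, and promoters from RefSeq (GRCm38.p6).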

Additional observations from a re-analysis of the deposited data

Results flagged for a closer look

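In CD26+ NFs in tumor CM, replicate 18 (line 13-MCB-138) stood apart for H2-D1, at 246 CPM with the nearest library at 293 CPM. Its gap to the nearest library was 0.687 of the group's range, above Dixon's 95% limit for 6 libraries. Of 26 groups checked 1 was set apart in this way, and chance sets apart about 1 in 20.

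The effect of tumor CM differed between CD26+ and CD26- NFs, by the test of the difference itself, for H2-K1 (0.98 on the log2 scale), H2-D1 (0.51) and B2m (0.40). The same test passed for 4 of 20 tested other class I genes, among them H2-T10 (1.44), H2-T22 (0.99) and H2-Q4 (0.88). It passed for 2 of 13 interferon signaling genes, among them the receptor chain Ifngr2 (0.68). Of 4 proteasome activators 1 passed, Psme2 (0.46), and of 5 tested MHC class II genes 1 passed, H2-Ab1 (1.40). All of these were higher in CD26+ NFs, where 4.53% of all genes were higher and 3.01% lower. Each value is the effect in CD26+ NFs minus that in CD26- NFs.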

How the results depend on the processing

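No call of the 10 genes turned direction under any alternative run. Of their 50 values, 10 that were not called, of at most 0.18 in size on the log2 scale, changed sign when some library was left out, and medians over all genes, which lay within 0.01 of 0, changed sign under some alternatives, for example for the difference with upper-quartile scaling (-0.03). Counts of the 10 genes past the threshold were, for tumor CM in CD26- NFs, 2 as reported, 0 to 2 with a library left out and 3 with the line as a replicate block. For tumor CM in CD26+ NFs they were 4, 3 to 4 with a library left out, 3 with upper-quartile scaling and 3 with no filter. For the cell types in control medium they were 3, 3 to 5 with a library left out, 4 with the replicate block and 4 with only the compared groups. For the cell types in tumor CM they were 4, 3 to 6 with a library left out, 5 with DESeq2, 5 with the block and 3 with no filter or only the compared groups. For the difference between the effects they were 3, 3 to 5 with a library left out, 4 with DESeq2 and 5 with the block. With a log2 fold change limit of 1 or 2 added, each of these 5 counts became 0, since a stricter limit was added. For differences among lines the count was 0, 1 with the DESeq2 likelihood ratio test and 0 to 2 with a library left out. Of the subunit ratios 3 passed, also with each library left out and with a prior count of 2, and 0 with the line as a replicate block (signs flipped within lines), which was added after the data were seen and cannot give an adjusted p under 0.05 here. Scaling and the other count tests were not applied to the ratios. Among the 10 genes the replicate block changed the calls of Nlrc5 for tumor CM in CD26- NFs, of Tapbp in control medium, of Tapbp and Psmb10 for the difference, and of B2m in tumor CM, and it changed no other call. The causes of the other changes were not tested. Depth limits Nlrc5 and Psmb9, whose counts were at most 31 and 25 in a library.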

Other observations

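MHC class II genes, which fibroblasts carry at low levels, were near the detection limit. Of 11 genes 5 were tested, and the list summed to 8.11 to 14.6 CPM in a library. H2-Ab1, a class II beta chain, averaged 2.097 CPM in CD26+ control libraries and 5.18 CPM in CD26+ NFs in tumor CM (log2 fold change 1.31 ± 0.30, adjusted p = 0.00393 in edgeR), with a value of -0.08 ± 0.28 in CD26- NFs (adjusted p = 0.876) and a difference of 1.40 ± 0.41 (adjusted p = 0.048). The call of the difference was kept without replicate 2, 6, 7 or 18 and lost without any other library (1.21 to 1.54, adjusted p = 0.0542 to 0.133) and with upper-quartile scaling (1.36, adjusted p = 0.0506). H2-Ab1 was the only gene of that list to pass for tumor CM in either cell type, where 28.6% of all genes passed in CD26+ and 15.2% in CD26- NFs. At an unadjusted p under 0.05 in edgeR, 2 of the 5 were higher in CD26+ NFs and 1 in CD26- NFs. Cd74, the invariant chain, was higher in CD26+ than in CD26- NFs in control medium (2.04 ± 0.75, adjusted p = 0.03), on 3 to 25 counts per library, a call lost without replicate 1, 2, 3 or 11 (1.77 to 2.08, adjusted p = 0.0677 to 0.103).

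Among 16 other 20S proteasome subunits and assembly factors, 11 were lower and 3 higher in CD26+ than in CD26- NFs in control medium (25.4% and 25% of all genes), and 12 were lower in tumor CM (29.3% of all genes). Psma1 had the smallest p in control medium (-0.57 ± 0.06, adjusted p = 4.1e-07) and Psma2 in tumor CM (-0.38 ± 0.03, adjusted p = 1.51e-08). With tumor CM, 1 was higher (Psma6, 0.38 ± 0.07, adjusted p = 0.000371) and 4 lower in CD26+ NFs (15.2% and 13.4% of all genes), and 2 were lower in CD26- NFs (7.28% of all genes).

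Fcgrt, whose class I-like product recycles IgG and albumin, was higher in CD26+ than in CD26- NFs in control medium (1.43 ± 0.13, adjusted p = 2.37e-07) and in tumor CM (1.27 ± 0.09, adjusted p = 6.88e-09). H2-M9, another class I-like gene, fell with tumor CM in CD26- NFs from a mean of 3.12 to 1.05 CPM (-1.58 ± 0.30, adjusted p = 0.00246).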
